A study of Mus musculus with 20 samples.

Results

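The 9 genes described here write, read and remove DNA methylation. They are the dioxygenases Tet1, Tet2 and Tet3, the glycosylase gene Tdg, the methyltransferases Dnmt1, Dnmt3a and Dnmt3b, and the methylation readers Uhrf1 and Mbd1. They were taken by mouse gene symbol through NCBI Gene numbers, and all 9 were listed among the 19311 genes of the first set of libraries and the 24454 genes of the second. RNA sequencing of total RNA gave 20 libraries of mouse MMTV-PyMT breast cancer cells, in 10 groups of 2 replicates from 2 independent experiments. In the first set, M1, M2 and M3 are stable mesenchymal clones, and Py2T LT are Py2T cells held in TGF-beta 1 at 2 ng/ml for more than 10 days. The second set is all from clone M3, carrying an shRNA against Tet2 (shTet2), one against Mbd3 (shMbd3) or a control shRNA (shControl). Each of these was sequenced with 2 µM CI994 for 72 hours and without it. CI994 is an inhibitor of class I histone deacetylases, and Mbd3 belongs to the NuRD chromatin remodelling complex. Every knockdown was made in 1 clone, the labels name 1 shRNA line per target, and whether M1 to M3 were cultured with TGF-beta is not labelled.

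Dnmt3a and Dnmt3b place new methyl groups on cytosines at CpG sites. Dnmt1 copies the pattern to the new strand at replication, where Uhrf1 recruits it to hemimethylated CpG. The TET enzymes oxidise methylated cytosine, and Tdg cuts out the further oxidised bases so that base excision repair can restore an unmodified cytosine, while Mbd1 binds methylated CpG and represses transcription.

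The members that changed in the knockdown cells have windows of unlike CpG content at their first listed starts. The RefSeq windows (build GRCm38.p6, 250 bases before to 50 after the first listed start) are shown for the knockdown target Tet2, for Tet1, which was near 0 in the same cells, and for Tet3, Dnmt3a and Dnmt3b, which were higher in the shMbd3 cells, with CpG in capitals.
Tet1 promoter, chr10:62887275-62887574, minus strand: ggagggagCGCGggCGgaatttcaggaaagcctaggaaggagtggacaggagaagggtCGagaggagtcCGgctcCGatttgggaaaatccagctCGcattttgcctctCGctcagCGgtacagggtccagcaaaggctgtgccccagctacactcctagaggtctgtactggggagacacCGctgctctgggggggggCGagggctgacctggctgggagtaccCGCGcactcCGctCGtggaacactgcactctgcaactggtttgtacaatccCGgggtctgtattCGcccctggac
Tet2 promoter, chr3:133544341-133544640, minus strand: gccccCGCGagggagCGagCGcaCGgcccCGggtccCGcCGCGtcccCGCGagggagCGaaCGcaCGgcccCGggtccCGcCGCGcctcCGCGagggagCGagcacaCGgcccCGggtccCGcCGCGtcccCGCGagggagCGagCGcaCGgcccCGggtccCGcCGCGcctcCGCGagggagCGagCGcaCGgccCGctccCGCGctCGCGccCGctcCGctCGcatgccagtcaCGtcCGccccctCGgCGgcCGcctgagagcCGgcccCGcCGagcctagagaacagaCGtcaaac
Tet3 promoter, chr6:83441629-83441928, minus strand: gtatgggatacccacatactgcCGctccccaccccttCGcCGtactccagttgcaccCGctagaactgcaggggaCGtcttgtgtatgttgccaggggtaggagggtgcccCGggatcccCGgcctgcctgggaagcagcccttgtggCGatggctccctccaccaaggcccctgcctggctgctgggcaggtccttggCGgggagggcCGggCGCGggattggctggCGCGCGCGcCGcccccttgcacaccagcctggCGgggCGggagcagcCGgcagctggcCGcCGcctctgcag
Dnmt3a promoter, chr12:3806730-3807029, plus strand: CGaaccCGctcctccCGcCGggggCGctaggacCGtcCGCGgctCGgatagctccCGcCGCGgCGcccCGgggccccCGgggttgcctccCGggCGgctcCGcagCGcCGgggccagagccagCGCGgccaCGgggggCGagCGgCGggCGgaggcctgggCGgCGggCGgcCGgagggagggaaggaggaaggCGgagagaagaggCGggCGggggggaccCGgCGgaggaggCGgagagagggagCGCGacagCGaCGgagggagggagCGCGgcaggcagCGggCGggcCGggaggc
Dnmt3b promoter, chr2:153649199-153649498, plus strand: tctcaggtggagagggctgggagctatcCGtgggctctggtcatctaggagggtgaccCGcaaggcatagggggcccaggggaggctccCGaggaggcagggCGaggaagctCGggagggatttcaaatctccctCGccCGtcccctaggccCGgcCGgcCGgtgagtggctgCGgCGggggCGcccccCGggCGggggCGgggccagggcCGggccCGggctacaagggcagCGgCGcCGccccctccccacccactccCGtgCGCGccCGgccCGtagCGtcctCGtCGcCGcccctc

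The Tet2 window held 57 CpG, a number reached by 0.152% of the 32851 RefSeq windows of the same length, whose median was 7. The Dnmt3a window held 46 (1.65% of windows had as many) and the Dnmt3b window 30 (11.7%). Those of Tdg, Tet3 and Tet1 held 26 (16.9%), 22 (23.1%) and 17 (31.4%). Dnmt3a has 3 listed starts, and the window of the third held 18 (29.7%). The windows shown for Tet2, Tet3 and Dnmt3a lie inside the RefSeq gene spans (chr3:133463677-133545136, chr6:83362373-83457208 and chr12:3801559-3914443). Starts at the upstream ends of these spans were not examined. The GC box letters GGGCGG, searched on both strands and containing 1 CpG each, occurred 6 times for Dnmt3a, 4 times for Dnmt3b, 2 times for Tet3, once each for Tet2 and Tet1 and 0 times for Tdg. Of all windows, 35.7% held at least 1 such match. Methylation of these windows was not measured here.

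Tdg has to be read with its processed copy Tdg-ps2 (chromosome 10, 42052558 to 42055453), since 99.2% of 1194 aligned bases are identical between the longest GENCODE M21 transcripts. A longer copy, Tdg-ps on chromosome 15, is identical to Tdg at 98.7% of 2968 aligned bases and is listed in neither set. A stretch of 100 bases of the Tdg reading frame, bases 73 to 172 counted from its first base, is shown against Tdg-ps2, with the 1 difference in capitals.
Tdg: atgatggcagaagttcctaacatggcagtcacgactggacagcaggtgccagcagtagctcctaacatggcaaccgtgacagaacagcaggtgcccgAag
Tdg-ps2: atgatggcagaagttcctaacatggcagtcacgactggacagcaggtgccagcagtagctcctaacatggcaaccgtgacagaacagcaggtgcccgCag

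In the CPM files the gene and its copy were nearly equal, for example 29.0 and 32.1 CPM for Tdg and 28.8 and 32.0 CPM for Tdg-ps2 in shMbd3. Over the 12 libraries their log2 values had r = 0.9998, as a description. In the RPKM files Tdg was listed at 0.108 to 0.222 and Tdg-ps2 at 0 to 0.0771, so the split of reads between gene and copy is uncertain in both sets. Each Tdg value below carries that limit.

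Depth and library quality bear on all members. The 12 CPM libraries held 16086082 to 24977595 reads, recovered as whole reads from the CPM steps, and a count of 0 allows up to 3 reads, or 0.120 to 0.186 CPM. The depth behind the RPKM values is unknown. Intervals and floors cover counting error only. All 12 mesenchymal markers were above 0 in every group, with sums of 3969 to 6365 RPKM in the first set, while the 6 endothelial markers summed to at most 1.47 RPKM and 1.43 CPM. Haematopoietic markers summed to 25.2 to 42.0 RPKM in the clones and 21.5 to 23.3 RPKM in Py2T LT (7 genes listed), and to 40.2 to 55.8 CPM with CI994 and 21.9 to 45.5 CPM without it (8 genes). The defining leukocyte gene Ptprc was at 0 to 0.378 CPM. These are RNAs from bulk cultures, in which fewer cells of a type and less RNA per cell cannot be told apart. The library labelled shControl replicate 1 (without CI994) stood apart. Its Mbd3 level was 5.40 CPM, against 66.5 CPM in replicate 2. Its log2 difference from replicate 2 fell by 1.77 between the lowest and the highest decile of transcript GC content, while the change was between -0.387 and 0.014 in the other 5 CPM pairs. The members followed this trend in part. Tet1 (43.7% GC) was 0.69 higher in replicate 1 on the log2 scale, Dnmt1 (54.0% GC) had a log2 ratio of -0.72, and the other 7 lay between. Tdg (47.9% GC) was off the order, with a ratio of -0.45. That is below Mbd1 (50.2% GC, -0.15), Dnmt3a (51.9% GC, -0.25) and Dnmt3b (53.1% GC, -0.35). The member results that use this library are therefore also given without it, and the gene lists of the knockdowns by their counts.

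**Figure D1:**
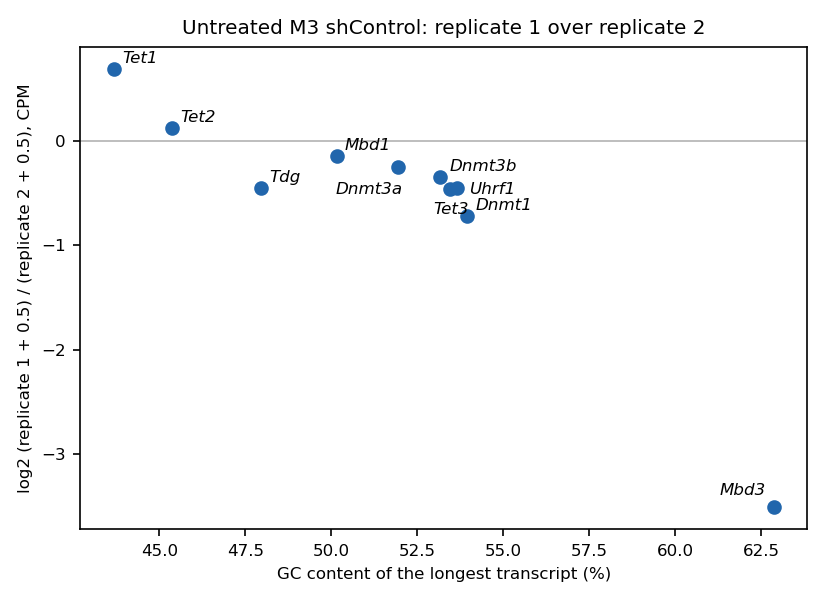
Log2 ratio of CPM + 0.5 between replicate 1 and replicate 2 of the M3 shControl cells without CI994 (y axis) against the GC content of each gene's longest transcript in percent (x axis), 1 point per member gene and Mbd3. The ratio runs from 0.69 for Tet1 to -0.72 for Dnmt1, and to -3.51 for Mbd3.

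Uhrf1 (chr17:56303337-56323486), Dnmt1 (chr9:20907206-20959888) and Tdg (chr10:82629814-82650799) are given by their RefSeq gene spans on GRCm38.p6. Per kilobase of transcript, the maintenance pair stood far above the others in both sets. In RPKM over 8 libraries the medians were 55.3 for Uhrf1 and 50.1 for Dnmt1, followed by 10.4 for Tet3, 9.05 for Mbd1, 3.54 for Dnmt3a, 2.32 for Tet2, 1.67 for Dnmt3b, 0.140 for Tdg and 0.127 for Tet1. Uhrf1 and Dnmt1 overlapped in range, as did Tet3 with Mbd1, Dnmt3a with Tet2, Tet2 with Dnmt3b, and Tdg with Tet1. In the M3 shRNA cells, the median CPM per kilobase of the longest transcript over 12 libraries was 50.6 for Uhrf1, 44.4 for Dnmt1, 6.88 for Mbd1, 5.93 for Tdg and 4.68 for Tet3. It was 2.78 for Dnmt3a, 1.69 for Dnmt3b, 1.16 for Tet2 and 0.0485 for Tet1. Gaps without overlap lay between Dnmt1 and Mbd1 and between Tet2 and Tet1, and every other pair of neighbours overlapped. The 2 orders come from separate files, and they differ for Tdg, for Tet3 and Mbd1 and for Tet2 and Dnmt3b.

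The clones were compared with Py2T LT to ask which members differ between stable mesenchymal clones and cells held in TGF-beta. Dnmt3b was higher and Mbd1 lower in the clones, the only members called in each of M1, M2 and M3, and Uhrf1 and Tet2 were higher by smaller amounts. Of the 7 members that passed the filter of 1 RPKM in 2 libraries, 3 were higher and 1 lower at an adjusted p under 0.05 (limma, Benjamini-Hochberg over 11717 genes). In the same test 32.4% of all genes were higher and 32.6% lower. Tet1 and Tdg did not pass the filter and were not tested, and Dnmt3b passed it only through the clone libraries, where it is higher. Its call stood with no filter on low values.

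Dnmt3b, the de novo enzyme, measured 1.83 and 1.83 RPKM in M1, 1.45 and 1.60 in M2 and 1.75 and 1.82 in M3, against 0.861 and 0.762 RPKM in Py2T LT. All 6 clone libraries lay above both Py2T LT libraries. The log2 difference was 0.74 ± 0.10 (SE; limma, adjusted p = 0.000272), on the scale of RPKM + 0.5, which understates changes at this level. Mbd1 measured 10.1 and 9.03 RPKM in M1, 9.07 and 7.53 in M2 and 8.95 and 8.45 in M3, against 19.07 and 16.6 RPKM in Py2T LT. No clone library reached the Py2T LT levels, and its log2 difference was -0.996 ± 0.103 (SE; limma, adjusted p = 4.2e-05). Both calls stood when any 1 library was left out, with log2 differences of 0.67 to 0.78 for Dnmt3b and -1.11 to -0.92 for Mbd1.

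Uhrf1, the partner of Dnmt1, measured 55.1 and 57.9 RPKM in M1, 59.0 and 55.5 in M2 and 58.8 and 48.6 in M3, against 45.2 and 43.4 RPKM in Py2T LT. The groups did not overlap, and the log2 difference was 0.31 ± 0.09 (SE; limma, adjusted p = 0.0170). Without Py2T LT replicate 1 the adjusted p was 0.0887, and without replicate 2 it was 0.145. Tet2 measured 1.23 and 2.28 RPKM in M1, 2.62 and 2.82 in M2 and 2.56 and 2.36 in M3, against 1.42 and 1.52 RPKM in Py2T LT. M1 replicate 1 lay below both Py2T LT libraries and the other 5 above them. The log2 difference was 0.47 ± 0.17 (SE; limma, adjusted p = 0.0409), and the call was lost in 6 of 8 fits that left out 1 library, namely each library of Py2T LT, M2 and M3, with adjusted p from 0.0588 to 0.212. It was also lost with no filter on low values (adjusted p = 0.0735).

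Dnmt1 measured 44.0 to 58.3 RPKM over all 8 libraries and did not pass, with a log2 difference of 0.13 ± 0.10 (SE; limma, adjusted p = 0.271). Dnmt3a gave -0.01 ± 0.17 (SE; limma, adjusted p = 0.959). Tet3 was 5.55 and 10.7 RPKM in M1, 8.65 and 8.57 in M2 and 10.6 and 10.3 in M3, against 10.6 and 10.4 RPKM in Py2T LT. The 2 M1 libraries thus differed from each other by more than any clone mean differed from Py2T LT, and Tet2 and Dnmt3a were also lower in M1 replicate 1. Without M1 replicate 2, Tet3 passed as lower in the clones, by -0.41 (limma, adjusted p = 0.00131). Untested Tet1 stood at 0.406 and 0.332 RPKM in M3, above the 0.0043 to 0.158 RPKM of M1, M2 and Py2T LT.

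Taken 1 clone at a time, M1 had 2 members higher (Dnmt3b, Uhrf1) and 1 lower (Mbd1), against 30.7% of genes higher and 30.2% lower. M2 had 3 higher (Dnmt3b, Uhrf1, Tet2) and 1 lower (Mbd1), against 28.2% and 29.2% of genes. M3 had 2 higher (Dnmt3b, Tet2) and 1 lower (Mbd1), against 29.9% and 29.5% of genes. With 7 members tested, a single call moves the share widely, and the shares were not tested against those of all genes. In M2 the Uhrf1 and Tet2 calls were lost without any 1 of the 4 libraries compared (adjusted p = 0.0742 to 0.154 and 0.0627 to 0.109), as was the Tet2 call in M3 (adjusted p = 0.106 to 0.175). The Uhrf1 call in M1 was lost without either Py2T LT library and without M1 replicate 2 (adjusted p = 0.0883 to 0.2003), and with the GC trend removed (adjusted p = 0.160). Between the clones themselves 0 of 7 members differed, against 25.6% of genes (limma F test), and 0 of the 7 had an unadjusted p under 0.05. Without M1 replicate 2, which leaves the low library as the only M1 sample, Tet2, Tet3 and Dnmt3a passed that test (adjusted p = 0.0051, 0.0015 and 0.0158).

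**Figure D2:**
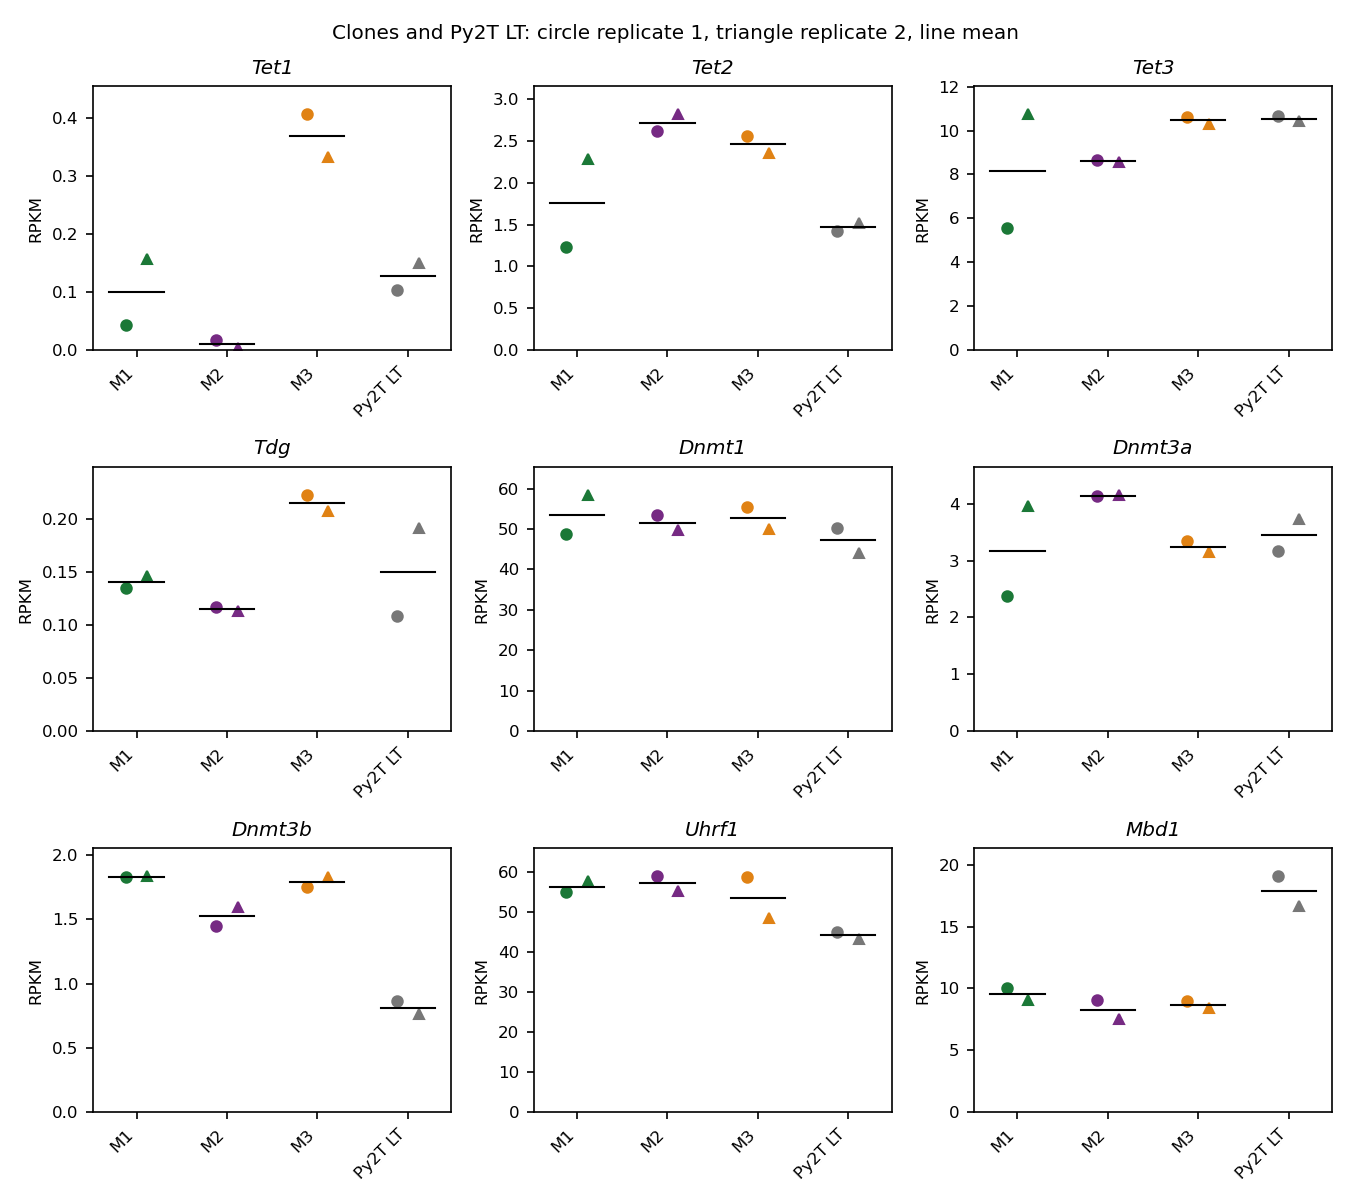
RPKM (y axis, from 0) of each member gene in the clones M1, M2 and M3 and in Py2T LT (x axis). Circles are replicate 1, triangles replicate 2 and lines the mean of 2; Dnmt3b is higher and Mbd1 lower in all 6 clone libraries, and M1 replicate 1 is low for Tet2, Tet3 and Dnmt3a.

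The pathway lists are given by their counts, beside the 32.4% of all genes higher and 32.6% lower in the clones. Of 14 tested genes for removal of oxidised cytosine and base excision repair, 2 were higher and 8 lower, with a median log2 difference of -0.44 against -0.0031 over all genes. Gadd45a and Gadd45g, stress-induced genes tied to demethylation, had log2 differences of -3.22 and -1.85, and the uracil glycosylase Ung one of 0.26. Of 9 tested partners and cofactors of the TET enzymes, 2 were higher and 3 lower. Idh1 and Idh2, which make the TET cosubstrate 2-oxoglutarate, rose by 1.21 and 0.54, and Cxxc5, a CXXC-domain protein, fell by 2.76. Of 14 partners of the methyltransferases 3 were higher and 6 lower, of 12 genes of methyl donor supply 2 and 6, and of 10 other methyl-CpG readers 2 and 5. Mbd2 rose by 0.35, while Zbtb33 (Kaiso) fell by 1.33 and Mbd6 by 0.83. Among 28 genes of DNA replication, during which Dnmt1 and Uhrf1 act, 12 were higher and 7 lower, and their summed level was 1778 to 1846 RPKM in the clones and 1698 to 1789 RPKM in Py2T LT. Cell state markers also differed between the clones and Py2T LT. Of 12 mesenchymal markers 4 were higher and 8 lower, and the log2 differences were 4.28 for Cdh2 (N-cadherin), -3.05 for Col1a1 and -1.70 for Vim. Of 9 tested epithelial markers 4 were higher and 2 lower, among them the claudin genes Cldn7 with 2.02 and Cldn4 with -3.78. Of 2 tested haematopoietic markers, Cd14 was 0.57 higher. The part of these shifts, or of proliferation, in the member differences was not tested.

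In the M3 shRNA cells without CI994, Tet2 was lower in shTet2 than in shControl, and Tet1 was near 0 in shTet2. The 2 genes are the members called in shTet2 against shControl, both lower, and the other 7 did not pass (2 of 9, 0 higher), against 10.4% of 12808 genes higher and 12.9% lower (limma, Benjamini-Hochberg adjusted p under 0.05). Tet1 passed the filter of 0.5 CPM only through libraries without the Tet2 shRNA, where it is higher.

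Tet2, the target, measured 8.41 and 7.97 CPM in shTet2, against 15.1 and 13.8 CPM in shControl. Both shTet2 libraries lay below both shControl libraries. Summed over the pair, Tet2 reads, scaled by library total, were 56.5% of those in shControl (95% exact interval 49.3 to 64.6%, counting error only). The fitted log2 difference was -0.76 ± 0.18 (SE; limma, adjusted p = 0.0176). It was -0.64 without shControl replicate 1 (adjusted p = 0.0281), and the call was lost when either shTet2 library was left out (adjusted p = 0.0737 and 0.107), which leaves 1 shTet2 sample.

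Tet1, which is best known from embryonic stem cells, fell further. It had 1 and 0 reads in the shTet2 libraries, 0.0472 and 0 CPM, against 86 and 47 reads, 3.94 and 2.25 CPM, in shControl. Per read sequenced, the shTet2 pair held 0.779% of the shControl level (95% exact interval 0.0196 to 4.41%). On the log2 scale of CPM + 0.5 the difference was -2.77 ± 0.28 (SE; limma, adjusted p = 0.000168), and -2.38 without shControl replicate 1. Since Tet1 passed the filter only through libraries without the Tet2 shRNA, the filter set its direction in tests of shTet2, with or without CI994. At so few reads the size of the difference depends on the pseudocount. The call without CI994 stood with no filter on low values, with a pseudocount of 0.1 or 1 and with edgeR and DESeq2 on the recovered reads. With CI994 the shTet2 libraries held 1 and 2 Tet1 reads, 0.0423 and 0.0894 CPM, against 18 and 18 reads, 0.721 and 0.905 CPM, in shControl. That is 8.12% (95% exact interval 1.60 to 25.7%), with a log2 difference of -1.21 ± 0.28 (SE; limma, adjusted p = 0.0172). The Tet1 call with CI994 was lost in each of the 4 fits that left out 1 of its libraries (adjusted p = 0.0681 to 0.110). The shRNA sequences were not used here, so a match to Tet1 was not tested.

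Tet3, the most abundant of the 3 TET genes, measured 46.5 and 46.4 CPM in shTet2, inside the range of 44.8 and 61.9 CPM in shControl. Its log2 difference was -0.15 ± 0.12 (SE; limma, adjusted p = 0.396), and -0.32 without shControl replicate 1 (adjusted p = 0.0181). Mbd1 measured 27.6 and 28.9 CPM in shTet2, against 21.7 and 24.1 CPM in shControl. The groups did not overlap, but the log2 difference of 0.33 ± 0.11 missed the threshold (SE; limma, adjusted p = 0.0545) and passed without shControl replicate 1 (0.31, adjusted p = 0.0391). Tdg, Dnmt1, Dnmt3a, Dnmt3b and Uhrf1 had log2 differences between -0.10 and 0.31, with adjusted p of 0.140 or more. Without shControl replicate 1 the log2 differences were 0.14 for Tdg, -0.13 for Dnmt1, -0.16 for Dnmt3a, 0.001 for Dnmt3b and -0.15 for Uhrf1, and none of the 5 passed (limma, adjusted p = 0.192 or more). Without replicate 2 instead, Tdg and Dnmt1 passed as higher (0.47 each; limma, adjusted p = 0.00378 and 0.000237).

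With CI994, 1 member was higher and 1 lower in shTet2 than in shControl, against 6.68% and 9.24% of genes. The higher one was Mbd1, at 31.2 and 29.8 CPM in shTet2 and 23.2 and 23.3 CPM in shControl, a log2 difference of 0.38 ± 0.11 (SE; limma, adjusted p = 0.0434). Leaving out any of its 4 libraries lost this call, with adjusted p of 0.153 to 0.229, and so did testing with no filter on low values (adjusted p = 0.0556). Tet2 measured 6.30 and 7.42 CPM in shTet2 and 8.13 and 11.4 CPM in shControl, without overlap. Its log2 difference of -0.47 ± 0.18 did not pass (SE; limma, adjusted p = 0.127), although it did where shControl replicate 1 without CI994 was kept out of the shared spread (adjusted p = 0.0372).

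The knockdown moved cell state markers as well. Of 10 tested epithelial markers 8 were higher in shTet2 than in shControl, with summed levels of 3662 to 4149 CPM against 982 to 2517 CPM. The splicing factor Esrp1 rose by 3.98 and the adhesion gene Epcam by 2.26 on the log2 scale, and the mesenchymal filament gene Vim fell by 2.12. Of 12 mesenchymal markers 3 were higher and 4 lower, with summed levels of 4648 to 4969 CPM in shTet2 and 6813 to 8973 CPM in shControl. Of 28 replication genes 0 were higher and 5 lower, with Mcm6 and Ccne1 fallen by 0.73 and 0.77. The part of either shift in the Tet1 and Tet2 values was not tested. Of the TET partners, Idh1 fell by 0.77 and Cxxc5 by 1.61, Idh3a rose by 0.54 and Zscan4c by 0.91, and 6 of 11 did not pass. Gadd45b rose by 1.04 and the glycosylase Neil3 fell by 0.58, the 2 genes called among 14 of oxidised cytosine removal. Among 14 methyltransferase partners Kdm2b was called, 0.56 lower. Without shControl replicate 1, 9 epithelial markers were higher and 0 lower, 4 mesenchymal ones higher and 5 lower, and 1 replication gene higher and 7 lower. The counts were then 3 higher and 3 lower for TET partners, 2 and 3 for oxidised cytosine removal, and 1 and 2 for methyltransferase partners. All genes named in this paragraph kept their calls.

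Knockdown of Mbd3 went with a rise of 4 members in the same cells. Dnmt3a, Dnmt3b, Tet3 and Tdg were higher in shMbd3 than in shControl and 0 members were lower, against 15.3% of genes higher and 16.9% lower. With CI994 the same 4 members were higher and 0 lower, against 8.1% and 11% of genes. The 2 comparisons share no library, but they share the estimate of the spread, so their p-values are not independent. The Mbd3 transcript itself measured 22.1 and 27.7 CPM in shMbd3 and 5.40 and 66.5 CPM in shControl, and with CI994 16.6 and 21.9 CPM in shMbd3 and 53.6 and 67.7 CPM in shControl. The library labelled shControl replicate 1 thus held less Mbd3 than either shMbd3 library. Mbd3 (62.9% GC) lies in the highest decile of transcript GC content. In that decile the median log2 difference of shControl replicate 1 from replicate 2 was -1.14 after TMM scaling, and the log2 ratio of Mbd3 was -3.51. The part of the GC trend, or of a wrong label, in this value was not tested. Without shControl replicate 1 the log2 difference of Mbd3 in shMbd3 was -1.41, and 0.29 with it (limma, adjusted p = 0.799). With CI994 the lower Mbd3 level in shMbd3 did not pass the threshold in the main fit either. Its log2 difference was -1.67 with untreated shControl replicate 1 kept out of the fit.

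Dnmt3a, a de novo methyltransferase, measured 35.5 and 32.0 CPM in shMbd3, against 17.4 and 20.7 CPM in shControl. With CI994 it measured 40.4 and 34.5 CPM in shMbd3, against 24.3 and 22.2 CPM in shControl. Each shMbd3 library lay above its controls in both settings. Its log2 difference was 0.75 ± 0.13 without CI994 (SE; limma, adjusted p = 0.00336) and 0.64 ± 0.13 with it (adjusted p = 0.00878). It was 0.68 without shControl replicate 1 (adjusted p = 0.00241). With CI994 the call was lost without shControl replicate 2 (adjusted p = 0.0781) and without shMbd3 replicate 1 (adjusted p = 0.0871).

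Dnmt3b, the other de novo enzyme, measured 11.02 and 10.8 CPM in shMbd3, against 5.99 and 7.76 CPM in shControl. With CI994 it measured 7.86 and 8.33 CPM in shMbd3, against 4.52 and 4.33 CPM in shControl. The groups did not overlap in either setting. The log2 difference was 0.58 ± 0.17 (SE; limma, adjusted p = 0.0306) without CI994 and 0.77 ± 0.17 (adjusted p = 0.0125) with it. The first call was lost without shControl replicate 1 (0.46, adjusted p = 0.0755) and without either shMbd3 library (adjusted p = 0.136 and 0.110), and the second without any 1 of its 4 libraries (adjusted p = 0.0621 to 0.0850). With the GC trend of each library removed, the first was 0.34 (adjusted p = 0.0917).

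Tet3 measured 86.9 and 84.0 CPM in shMbd3, against 44.8 and 61.9 CPM in shControl. With CI994 it measured 74.3 and 78.6 CPM in shMbd3, against 44.6 and 49.6 CPM in shControl. The lowest shMbd3 library was above the highest control in both settings. Its log2 difference was 0.63 ± 0.12 (SE; limma, adjusted p = 0.00599) without CI994 and 0.66 ± 0.12 (adjusted p = 0.00578) with it. Without shControl replicate 1 it was 0.46 (adjusted p = 0.00282), without shMbd3 replicate 1 the adjusted p was 0.0529, and with CI994 it was 0.0579 without shControl replicate 1 and 0.0525 without shMbd3 replicate 2. With the GC trend of each library removed, the difference without CI994 was 0.38 and still passed.

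Tdg, listed apart from its copy but with an uncertain split of reads between them, measured 29.0 and 32.1 CPM in shMbd3. In shControl it measured 13.3 and 18.4 CPM. With CI994 it measured 29.0 and 31.6 CPM in shMbd3, against 18.4 and 19.0 CPM in shControl. No library of one group entered the range of the other. The log2 difference was 0.88 ± 0.14 (SE; limma, adjusted p = 0.00192) without CI994 and 0.64 ± 0.14 (adjusted p = 0.0109) with it, and 0.72 without shControl replicate 1 (adjusted p = 0.000755). With CI994, 3 of 4 fits that left out 1 library lost the call (adjusted p = 0.0670 to 0.0894), and the fit without shMbd3 replicate 1 kept it.

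The maintenance pair and the other 2 TET genes did not pass in shMbd3 without CI994. Dnmt1 measured 264 and 280 CPM in shMbd3 and 183 and 302 CPM in shControl, and Uhrf1 182 and 198 CPM in shMbd3 and 146 and 200 CPM in shControl. In both genes the shMbd3 values lay between the 2 shControl values, and without shControl replicate 1 the log2 differences were -0.15 and -0.08 (limma, adjusted p = 0.133 and 0.504). With CI994 neither passed (-0.23 and -0.24; limma, adjusted p = 0.398 and 0.218). There, both passed as lower with the GC trend removed (-0.29 each; adjusted p = 0.00595 and 0.00489) and with untreated shControl replicate 1 kept out of the shared spread (limma, adjusted p = 0.0103 and 0.0160). Tet2 measured 10.9 and 12.4 CPM in shMbd3, below both shControl libraries, with a log2 difference of -0.37 ± 0.18 (SE; limma, adjusted p = 0.145). Tet1 measured 1.34 and 2.05 CPM in shMbd3, also below both, with -0.74 ± 0.28 (SE; limma, adjusted p = 0.0661). Mbd1 had a log2 difference of 0.26 ± 0.11 (SE; limma, adjusted p = 0.0874). Without shControl replicate 1 the differences of Tet2, Tet1 and Mbd1 were -0.25, -0.35 and 0.25, and none passed (limma, adjusted p = 0.3515, 0.350 and 0.0881). Without replicate 2 instead, all 3 passed, with Tet2 at -0.49, Tet1 at -1.14 and Mbd1 at 0.28 (limma, adjusted p = 0.0431, 0.00303 and 0.0350).

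Where only the shMbd3 and untreated shControl libraries were fitted, 0 of 9 members passed (limma). The spread then rests on 2 residual degrees of freedom and includes the shControl pair that stood apart. Epithelial markers moved here too. Of 10 tested, 8 were higher in shMbd3 (summed levels of 2731 to 2827 CPM, against 982 to 2517 CPM in shControl), and 2 of 12 mesenchymal markers were higher and 6 lower. Their part in the member differences was not tested. Of 28 replication genes 3 were higher and 2 lower, and 0 of 14 methyltransferase partners passed in either direction (limma). Ung and Apex1, which excise uracil and cut abasic sites, rose by 0.89 and 0.37 among 14 repair genes, of which 4 were higher and 1, Neil3, lower. Cxxc5 rose by 1.62 and Idh1 fell by 0.85. Among other readers, Mbd5 and Zbtb33 fell by 1.07 and 1.28 while Zbtb38 and Zbtb4 rose by 0.37 and 0.29. Mat2b and Mat2a, subunits of the enzyme that makes the methyl donor S-adenosylmethionine, fell by 0.93 and 0.71. Without shControl replicate 1, 8 epithelial markers were higher and 1 lower, 3 mesenchymal ones higher and 6 lower, and 3 TET partners higher and 3 lower, against 1 and 2 with it. Ung was then 0.51 higher and Mat2a fell by 0.36, while Neil3 (-0.27) and Zbtb38 (0.24) did not pass (limma, adjusted p = 0.0850 and 0.0836).

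**Figure D3:**
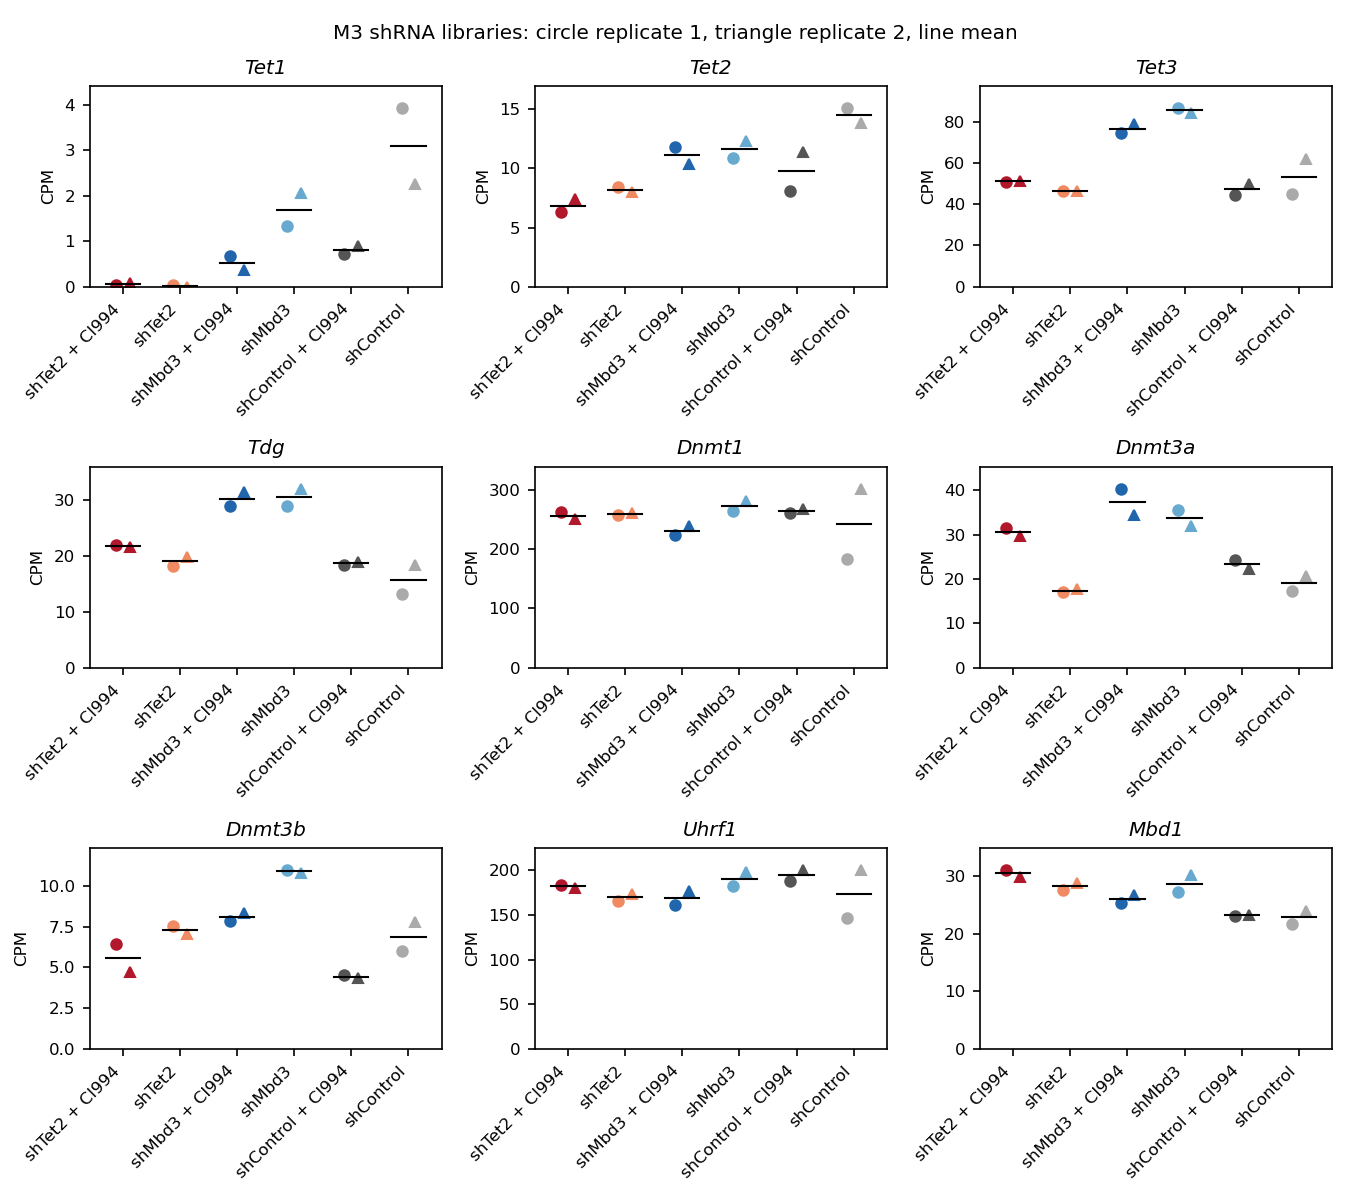
CPM (y axis, from 0) of each member gene in the 6 groups of M3 shRNA cells (x axis). Circles are replicate 1, triangles replicate 2 and lines the mean of 2; Tet1 is near 0 in all 4 shTet2 libraries, and Tet3, Tdg, Dnmt3a and Dnmt3b are higher in shMbd3 than in shControl.

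The knockdowns were also set against each other, which leaves the untreated shControl pair out of the difference. In shTet2 against shMbd3, 4 members were lower (Tet1, Tet3, Tdg, Dnmt3a) and 0 higher, against 9.63% of genes lower and 9.53% higher. Dnmt3a was 0.85 ± 0.13 lower in shTet2 (log2 difference -0.85; SE; limma, adjusted p = 0.00234), from the 17.0 and 17.8 CPM of shTet2 against the 35.5 and 32.0 CPM of shMbd3. The difference was -0.78 ± 0.12 for Tet3 (adjusted p = 0.00272), -0.58 ± 0.14 for Tdg (adjusted p = 0.0190) and -2.02 ± 0.28 for Tet1 (adjusted p = 0.0012; SE; limma). For Tet1 the limit of the filter given above holds here too. Tet2 itself, with a log2 difference of -0.39 ± 0.18, did not pass (SE; limma, adjusted p = 0.183). The Tdg call was lost without any 1 of its 4 libraries (adjusted p = 0.0728 to 0.131), and the other 3 stood in all 4 fits.

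With CI994, 2 members were lower in shTet2 than in shMbd3 (Tet2, Tet3) and 0 higher, against 10.8% and 11.1% of genes. Tet2 was at 6.30 and 7.42 CPM in shTet2 and 11.8 and 10.4 CPM in shMbd3, a log2 difference of -0.63 ± 0.18 (SE; limma, adjusted p = 0.0386). Tet3 differed by -0.55 ± 0.12 (SE; limma, adjusted p = 0.0130). Both calls were lost without any 1 of the 4 libraries (adjusted p = 0.0600 to 0.221). Where untreated shControl replicate 1 was kept out of the shared spread, an alternative chosen after seeing the data, 7 of 9 members passed. In this comparison 5 were then lower (Tet1, Tet2, Tet3, Tdg, Dnmt3b) and 2 higher (Dnmt1, Mbd1). Over all genes 6004 passed there, against 2803 in the main fit, so the rise in calls was not particular to the members.

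In the CI994-treated libraries the summed epithelial markers were 4772 to 4777 CPM in shTet2, 3489 to 3581 CPM in shMbd3 and 3651 to 3657 CPM in shControl. The summed mesenchymal markers were 9198 to 10355 CPM in shTet2, 5467 to 5838 CPM in shMbd3 and 11255 to 11378 CPM in shControl. The part of these differences in the member values was not tested. CI994 was given to ask what inhibition of deacetylases does in each line. In shControl cells 3 members were lower with CI994 (Tet1, Tet2, Dnmt3b) and 0 higher, against 15.7% of genes lower and 17.9% higher. Tet1 measured 0.721 and 0.905 CPM with CI994 and 3.94 and 2.25 CPM without it. In reads, that is 25.8% of the untreated level (95% exact interval 17.3 to 37.5%), and the log2 difference was -1.45 ± 0.28 (SE; limma, adjusted p = 0.0066). It was -1.05 without shControl replicate 1 (adjusted p = 0.0149), and the call was lost without the CI994 replicate 1 (adjusted p = 0.0555).

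Tet2 measured 8.13 and 11.4 CPM with CI994 and 15.1 and 13.8 CPM without it in shControl cells. The groups did not overlap, and the log2 difference was -0.60 ± 0.18 (SE; limma, adjusted p = 0.0361). The Tet2 call was lost without untreated shControl replicate 1 (-0.48, adjusted p = 0.0909) and without CI994 replicate 1 (-0.37, adjusted p = 0.204), and it was -0.33 with the GC trend of each library removed (adjusted p = 0.156). Dnmt3b measured 4.52 and 4.33 CPM with CI994 and 5.99 and 7.76 CPM without it. Both treated libraries were lower, with a log2 difference of -0.60 ± 0.17 (SE; limma, adjusted p = 0.0271), and -0.72 without untreated shControl replicate 1 (adjusted p = 0.0138). Leaving out either CI994 library lost this call (adjusted p = 0.0985 and 0.139). Tet3 passed as lower without untreated shControl replicate 1 (-0.36; limma, adjusted p = 0.0115) and with the GC trend removed (-0.49, adjusted p = 0.00088).

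Markers moved with CI994 in shControl cells as well. Of 10 epithelial markers 9 were higher and 0 lower, with sums of 3651 to 3657 CPM with CI994 and 982 to 2517 CPM without it, and of 28 replication genes 3 were higher and 7 lower. Of 12 mesenchymal markers 4 were higher and 3 lower, with sums of 11255 to 11378 CPM with CI994 and 6813 to 8973 CPM without it. Mesenchymal sums were also higher with CI994 in shTet2 (9198 to 10355 CPM, against 4648 to 4969 CPM) and in shMbd3 (5467 to 5838 CPM, against 4458 to 4676 CPM). Of 8 haematopoietic markers only 3 were tested, and with CI994 2 were higher and 0 lower in each line. These were the phagocyte genes Lyz2 and Cd68, which rose by 2.51 and 1.84 on the log2 scale in shControl. With CI994 they also rose by 2.61 and 2.24 in shTet2 and by 2.71 and 2.12 in shMbd3. Without untreated shControl replicate 1 the counts in shControl were 9 and 0 for epithelial markers and 2 and 6 for replication genes. The part of these shifts in the member differences was not tested.

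These values share the untreated shControl libraries with the knockdown comparisons above. In shTet2 cells, Dnmt3a was higher with CI994 and 0 members were lower, against 12.6% of genes higher and 11.7% lower. Dnmt3a measured 31.4 and 29.6 CPM with CI994 and 17.0 and 17.8 CPM without it. Its log2 difference was 0.73 ± 0.13 (SE; limma, adjusted p = 0.00525), lost only without CI994 replicate 1 (0.69, adjusted p = 0.0575). In shControl Dnmt3a measured 24.3 and 22.2 CPM with CI994 and 17.4 and 20.7 CPM without it, and in shMbd3 40.4 and 34.5 CPM with it and 35.5 and 32.0 CPM without it. Neither difference passed (0.25 ± 0.13, adjusted p = 0.147, and 0.14 ± 0.13, adjusted p = 0.533; SE; limma).

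In shMbd3 cells Tet1 was lower with CI994 and 0 members were higher, against 5.11% of genes lower and 7.57% higher. It had 16 and 6 reads with CI994, 0.673 and 0.373 CPM, and 32 and 46 reads without it, 1.34 and 2.05 CPM. The treated pair held 32.8% of the untreated level (95% exact interval 19.5 to 53.2%), with a log2 difference of -1.09 ± 0.28 (SE; limma, adjusted p = 0.0336). Leaving out any of the 4 libraries lost the call (adjusted p = 0.0825 to 0.207), and with edgeR and DESeq2 on the recovered reads the adjusted p was 0.0533 and 0.0576. The log2 difference of Dnmt3b with CI994 was -0.45 ± 0.17 in shTet2 (adjusted p = 0.0860), -0.41 ± 0.17 in shMbd3 (adjusted p = 0.152) and -0.60 ± 0.17 in shControl (SE; limma), of which the last passed. Without untreated shControl replicate 1 in the shared spread it passed in shTet2 and shMbd3 as well (adjusted p = 0.0258 and 0.0462).

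The difference between lines was tested itself, by subtracting the knockdown difference in untreated cells from that in CI994-treated cells. For shTet2, 0 of 9 members passed, against 0.414% of genes higher and 0.273% lower, and for shMbd3 0 of 9, against 0.039% in each direction (limma). With shTet2, 2 members had an unadjusted p under 0.05, Tet1 with 1.55 ± 0.39 (SE; limma, adjusted p = 0.122) and Dnmt3a with 0.47 ± 0.19 (adjusted p = 0.357), and with shMbd3 0 did. By edgeR and DESeq2 on the recovered reads 0 of 9 members passed in either interaction, and likewise by limma without untreated shControl replicate 1, where the Tet1 value with shTet2 was 1.16 (adjusted p = 0.0707). Tet1 stood at 0.0423 and 0.0894 CPM in shTet2 with CI994, against 0.0472 and 0 CPM in shTet2 without it, all at or below 2 reads.

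**Figure D4:**
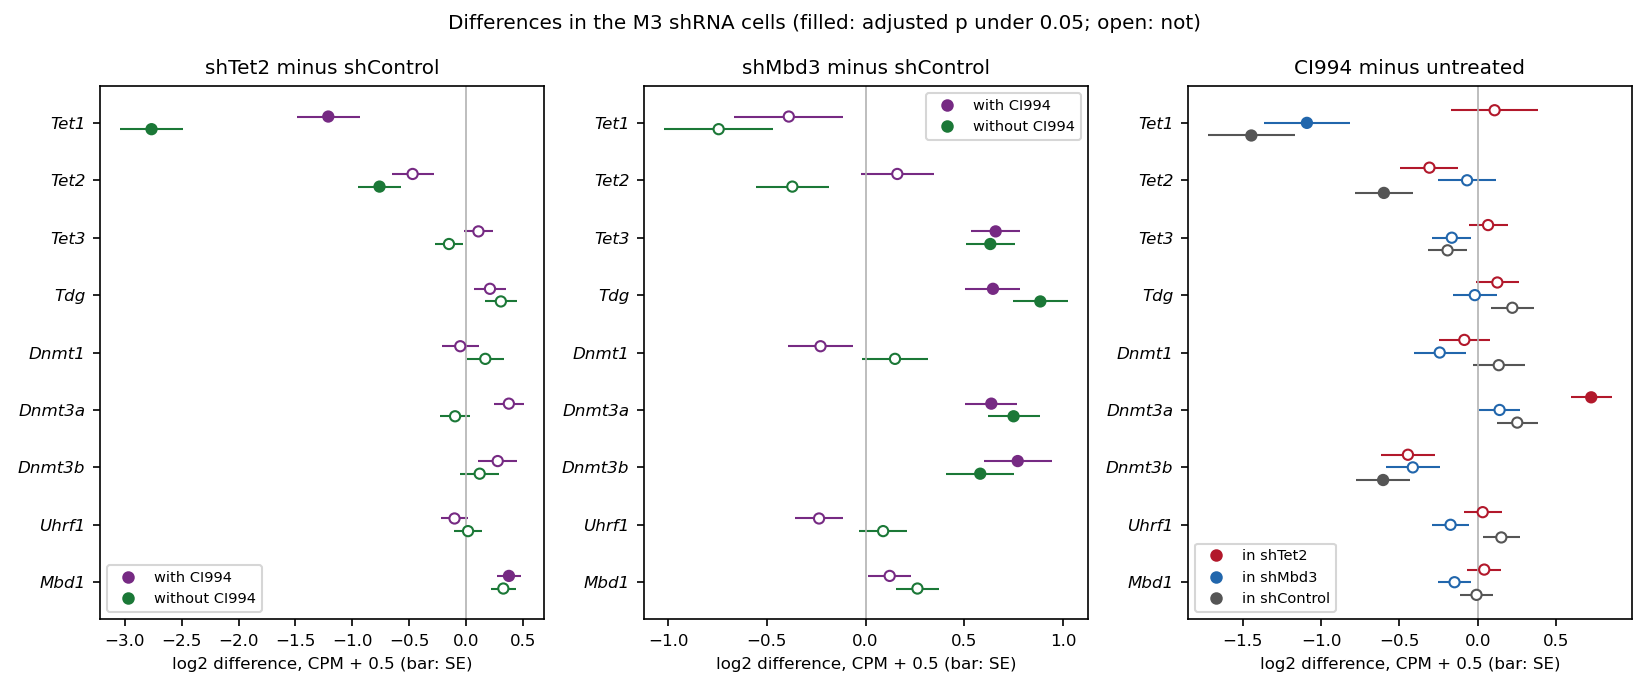
Log2 differences of CPM + 0.5 with standard errors (x axis) for each member gene (rows), in shTet2 minus shControl, shMbd3 minus shControl, and CI994 minus untreated within each line. Filled points passed an adjusted p of 0.05; Tet1 in shTet2 is the farthest at -2.77, and the 4 members higher in shMbd3 pass both with and without CI994.

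By a rule of the 2 highest Pearson correlations of log2 values, the genes most like each member were found over the 12 M3 shRNA libraries, which share groups and so are not independent. Tet1 was most like the microtubule gene Stmn1 (r = 0.972), Tet2 like Fam199x (r = 0.964), Tet3 like Fam149a (r = 0.971) and Bcl7a (r = 0.964), and Tdg, beside its copy, like Ankrd52 (r = 0.983). Dnmt1 was most like the histone demethylase gene Kdm4a (r = 0.963) and the mitotic regulator Foxm1 (r = 0.948), Dnmt3a like Sptbn1 (r = 0.955), Dnmt3b like Arhgef28 (r = 0.958), Uhrf1 like Ncstn (r = 0.933) and Mbd1 like Prom2 (r = 0.974). Over the 8 RPKM libraries other genes took these places, such as Galt for Dnmt3b (r = 0.997) and Mirt1 for Mbd1 (r = 0.994), and no gene was named for the same member in both sets.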

How the data were processed

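Per the labels' protocols, RNA of 2 independent experiments was made into TruSeq Stranded Total RNA libraries. The submitters' processing notes name STAR and mm10, and how reads were counted is not given in the sources used here. For Py2T LT and the clones the authors deposited values read here as RPKM (the values cannot tell RPKM from FPKM), and for the M3 shRNA cells the authors deposited CPM, of which 100% were whole reads within 0.01 reads. One RPKM file held 7 further columns equal to the other files' values, which were not used. The design's test on log2(value / TMM factor + 0.5) was fitted with limma 3.58.1 (edgeR 4.0.16, R 4.3.3; mean trend, robust), with group as the only term, once over the 8 RPKM libraries (genes with at least 1 RPKM in 2 libraries, 11717) and once over the 12 CPM libraries (at least 0.5 CPM in 2, 12808), with Benjamini-Hochberg adjustment to 0.05. The 2 sets were never fitted together. SE is that of the fit. The p-values rest on the spread between the 2 samples of a group, pooled over all groups of the set and moderated across genes. Simulated 2-fold changes were found in 86% of cases for shTet2 against shControl and 4-fold ones in 100%, without the spread of the real shControl pair. Gene IDs were matched to RefSeq for 19262 and 24374 genes. Promoters came from RefSeq GRCm38.p6 and transcripts from GENCODE M21 of the same assembly, with alignment in Biopython 1.88. Mbd1 is named without a sequence.

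The members and gene lists were chosen with earlier results of these data known. Named genes were all members, Mbd3, up to 2 rises and 2 falls per list and comparison with the smallest adjusted p under 0.05, and the 2 most similar genes per member. Alternatives were RLE size factors, library size only, no filter, pseudocounts of 0.1 and 1, a replicate block, removal of each library's GC trend (alone and with the block; GC known for 94.4% and 95.6% of tested genes), only the groups compared, edgeR and DESeq2 1.42.0 on the recovered reads, and each library left out. Leaving untreated shControl replicate 1 out of fits that do not compare it was chosen after seeing the data.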

Additional observations from a re-analysis of the deposited data

How the results depend on the processing

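With 2 samples a group, leaving 1 out gives a lone sample that is assumed to vary like the others, and many calls end there. Left out in turn, the members passing ranged from 2 to 5 (4 in the full fit) for the clones against Py2T LT, 2 to 2 for M2 (4), 0 to 3 among clones (0), 1 to 5 for shTet2 against shControl (2), 2 to 9 for shMbd3 against shControl (4), 0 to 7 for CI994 in shControl (3), 0 to 1 in shTet2 (1) and 0 to 0 in shMbd3 (1). With CI994 the ranges were 0 to 0 for shTet2 against shControl (2), 1 to 2 for shMbd3 against shControl (4) and 0 to 0 for shTet2 against shMbd3 (2), and for the interactions 0 to 2 (shTet2) and 0 to 3 (shMbd3), both 0 in the full fit. The highest counts with untreated shControl came without its replicate 2, where the library that stood apart is the only control. The number of all genes passing also swung widely over these fits, so the ranges are not particular to the members.

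Removal of the GC trend gave 4 members for shTet2 against shControl, 4 for CI994 in shTet2, 5 in shMbd3, 4 for shTet2 against shControl with CI994, 6 for shTet2 against shMbd3 with CI994 and 1 for the shTet2 interaction (Tet1, adjusted p = 0.0323). With GC trend and replicate block together these were 6, 4, 5, 4, 7 and 3, and 6 for CI994 in shControl. Fits of only the groups compared gave 1 member for shTet2 against shControl, 0 for shMbd3 against shControl and 0 for CI994 in shControl. They gave 2 members for CI994 in shTet2, 3 in shMbd3 and 4 for shTet2 against shMbd3 with CI994. Over all genes these fits gave 333, 308, 0, 7392, 4570 and 5629 in the same order. Without untreated shControl replicate 1 in the spread there were 2 members for CI994 in shTet2 and 3 in shMbd3. With CI994 there were 4 for shTet2 against shControl and 7 for shTet2 against shMbd3. The counts of all genes for this setting are given below. With no filter, 1 member passed among clones and 1 for shTet2 against shControl with CI994, by edgeR 0 and by DESeq2 0 for CI994 in shMbd3, and by DESeq2 4 for shTet2 against shMbd3 with CI994. For shMbd3 against shControl with CI994, 6 passed (4 in the full fit) with the GC trend removed, alone or with the block, and without untreated shControl replicate 1 in the spread, Dnmt1 and Uhrf1 being added as lower.

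Uhrf1 and Dnmt1 are the members whose sign turned under a setting that called them. With the GC trend removed, Uhrf1 was -0.18 in shMbd3 against shControl and -0.18 for CI994 in shTet2, with or without the block, and Dnmt1 was -0.20 for CI994 in shControl. With the block added, Uhrf1 was -0.16 in shTet2 against shControl and -0.16 for CI994 in shControl. Mbd3 in shMbd3 against shControl was -1.41 without M3_shControl replicate 1 and 1.98 without replicate 2. The causes were not tested.

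The labels do not say that a replicate number marks a shared experiment, and the numbers were not treated as pairs. Same-numbered samples deviated together in the CPM set with correlations of 0.0958 to 0.524 (14 of 15 group pairs over 0.1), and in the RPKM set of -0.122 to 0.128. With the replicate block the members passing were 4 for the clones, 3 for shTet2 against shControl (Mbd1 added, adjusted p = 0.0348) and 3 for shTet2 against shMbd3 with CI994 (Tdg added, adjusted p = 0.0252), and unchanged in the other comparisons. Over all genes, 2995 passed for shTet2 against shControl (4864 with the GC trend removed, 333 with only those groups), 4124 for shMbd3 against shControl (308 with only those groups), 2453 for shTet2 against shMbd3 (5787 without shControl replicate 1), 4304 for CI994 in shControl (0 with only those groups), 3107 in shTet2 (7367 without shControl replicate 1) and 1625 in shMbd3 (5366). With CI994 they were 2039 (5192) for shTet2 and 2446 (5646) for shMbd3 against shControl, 2803 (6004) for shTet2 against shMbd3, and 88 and 10 for the interactions (541 and 124 with the GC trend removed, 175 and 31 with the block). With the GC trend removed and the block they were 5897 for shTet2 and 6376 for shMbd3 against shControl, 5597 for shTet2 against shMbd3, 5273 and 4521 for CI994 in shTet2 and shMbd3, and with CI994 4693, 5428 and 5943 for shTet2 and shMbd3 against shControl and shTet2 against shMbd3. The interactions gave 38 and 0 genes by edgeR and 267 and 119 by DESeq2, and 0 to 4894 and 0 to 6306 with 1 library left out.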

Other observations

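Genes silenced by promoter methylation outside the germline were a list of 18, most of them below the filter. In the M3 shRNA cells 2 were tested, the bromodomain gene Brdt and the homeobox gene Rhox5. Brdt measured 0.897 and 0.697 CPM in shTet2 and 0.793 and 0.803 CPM in shMbd3, against 2.61 and 2.78 CPM in shControl, and was lower in both knockdowns, by -1.29 and -1.34 on the log2 scale (limma, adjusted p = 0.000992 and 0.000742). Without shControl replicate 1 it was -1.28 and -1.33 (limma, adjusted p = 0.0016 and 0.00125). With CI994 it was higher within shTet2, at 2.32 and 2.68 CPM with CI994, and within shMbd3, at 2.14 and 3.05 CPM. The log2 differences were 1.17 and 1.23 (limma, adjusted p = 0.00231 and 0.00321). Within shControl Brdt did not pass with CI994, and it passed in neither interaction.

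Rhox5 measured 2.06 and 2.30 CPM in shMbd3 with CI994, against 0.250 and 0.268 CPM in shMbd3 without it. In shControl it was at 0.721 and 0.101 CPM with CI994 and at 0.0458 and 0.0958 CPM without it. It passed the filter of 0.5 CPM through these CI994 libraries, and in the clone set through the 2 Py2T LT libraries alone, so its direction was set by the filter and no test is given.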
